A study of Mus musculus with 6 samples.

Results

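The proximal tubule genes of sodium and bicarbonate transport were examined as a group of 9 genes: Slc9a3, Slc4a4, Car2, Car4, Car12, Car14, Car15, Atp1b1 and Fxyd2. They were picked from the 55450 gene rows of the count table by their GENCODE M21 symbol, and all 9 were found, each in 1 row. Kidney mRNA came from 3 control mice (day 0, labelled 20% PEG) and from 3 mice taken at day 21, given adenine (0.16 g/kg) with potassium oxonate (2.4 g/kg) by daily gavage for 21 days. All were male wild type C57BL/6J mice, bought at 7 weeks of age and kept for 1 week before the study. The paper describes each group as killed on its own day, so the day-21 mice would also be older at collection. The 20% PEG label is given for the control mice only. Age, vehicle and treatment therefore cannot be told apart in the comparison of the 2 groups. Adenine forms crystals of a poorly soluble metabolite in the tubule and potassium oxonate blocks uricase, so that this combination is used as a model of hyperuricemia with kidney injury. Each library is made from kidney tissue as a whole, so fewer proximal cells and less mRNA per proximal cell cannot be told apart in any value below.

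The proximal tubule takes back most of the filtered sodium and bicarbonate. At the apical membrane the sodium-proton exchanger NHE3, encoded by Slc9a3, brings sodium in and sends protons out. Membrane-bound carbonic anhydrases such as Car4 and Car14 turn the bicarbonate and protons of the lumen into carbon dioxide and water. Inside the cell the cytosolic carbonic anhydrase, Car2, makes bicarbonate again, which leaves at the basolateral side through the sodium-bicarbonate cotransporter NBCe1, encoded by Slc4a4. The Na,K-ATPase, with its beta1 subunit from Atp1b1 and its gamma modulator from Fxyd2, keeps cell sodium low and drives the whole sequence. Loss of SLC4A4 function in people causes proximal renal tubular acidosis, and loss of CA2 function a mixed renal tubular acidosis with osteopetrosis. Atp1b1, Fxyd2, Car2 and Car12 are also made in other nephron segments, so they are not proximal markers. Whether the other genes of the group are limited to the proximal tubule was not tested.

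The libraries held 10963849 to 14256556 counts on day 0 and 12662200 to 14333311 on day 21. Kidney markers were present in both groups, with Umod between 3173 and 5421 CPM and Slc34a1 between 856.6 and 5438 CPM in the 6 mice (CPM, the usual depth-scaled count, here over TMM-scaled library sizes). All 12 proximal tubule markers tested were called lower on day 21, and their summed level went from 15860 to 18220 CPM on day 0 to 3149 to 3824 CPM on day 21. A gene was called when its adjusted p was under 0.05 and its fold change over 1.5, from edgeR's quasi-likelihood test on 16592 genes. Mitochondrial genes took 9.39% to 9.86% of counts on day 0 and 3.82% to 4.42% on day 21, and the TMM factors were 0.852 to 0.886 and 1.12 to 1.17. The part of these in the levels below was not tested beyond the other scalings and a fit without the mitochondrially encoded genes. That fit called 6 of the transport genes lower, and 5799 genes in all against 5821 with them. No batch is named in the labels.

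Of the 9 genes, 6 were called lower on day 21 (Car14, Car4, Slc4a4, Slc9a3, Fxyd2 and Car12), 2 were tested and not called (Atp1b1 and Car2) and Car15 had too few counts to be tested. None was called higher, and by edgeR at an unadjusted p under 0.05, by DESeq2 and by limma-voom this number was also 0. Among all genes tested, 35.1% were called, 15.5% lower and 19.6% higher. With libraries scaled by size alone, 81.7% of the calls over all genes were higher, against 55.8% with TMM. The median log2 fold change of the 8 genes was -1.03, against 0.03 for all genes. In each of the 8, the 3 day-21 mice lay below the 3 day-0 mice in TMM-scaled CPM, a pattern found in 26.4% of all genes tested. The reverse pattern, found in 30.7% of all genes, occurred in 0 of the 8. Overlap was not examined with library size alone, where the log2 fold change was 0.09 for Car2 and -0.14 for Atp1b1. With TMM, at an adjusted p under 0.05 and any fold, 7 of the 8 were lower, against 21.7% of all genes. Among the 8 genes, DESeq2 and limma-voom called 6 lower as well.

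**Figure D1:**
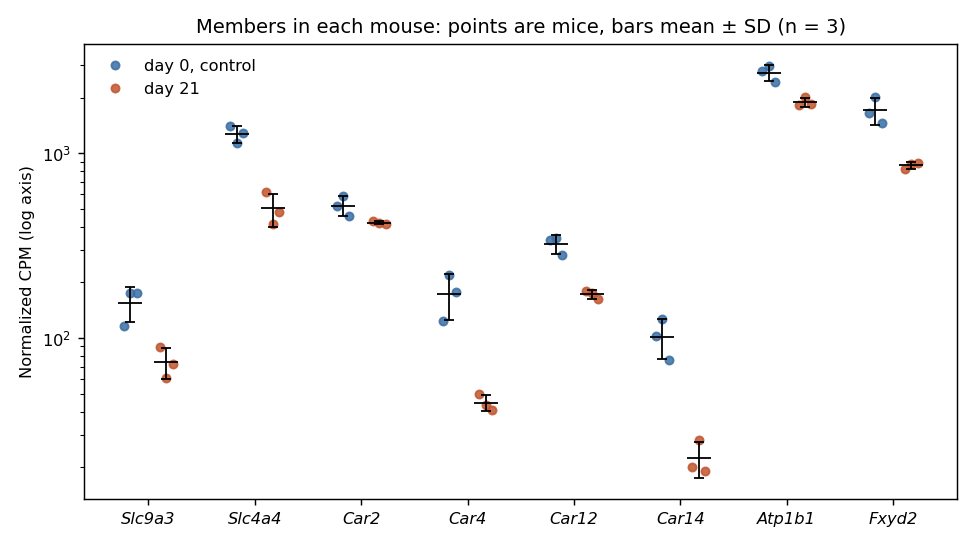
Normalized CPM (log axis) of the 8 tested genes in each of the 6 mice, blue for day 0 and orange for day 21, with the mean and SD of 3 mice as a horizontal mark and bars. On this TMM-scaled axis the orange points lie below the blue points in every gene, with the widest gap in Car14 and Car4 and the narrowest in Car2.

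Slc9a3 (ENSMUSG00000036123.8, chromosome 13 of GRCm38, 74121457 to 74169442, forward strand, 17 exons in its longest transcript) encodes NHE3. Its level was 116.4, 174.8 and 174.6 CPM in the day-0 mice and 89.07, 61.09 and 72.21 CPM in the day-21 mice. The first day-0 mouse was clearly below the other two, but still above every day-21 mouse. The mean went from 155.3 ± 33.65 CPM (SD, n = 3) to 74.12 ± 14.09 CPM (SD, n = 3), a log2 fold change of -1.07 (standard error 0.18, edgeR adjusted p = 9.5e-04). Without that day-0 mouse it was -1.26.

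Slc4a4 (ENSMUSG00000060961.14, chromosome 5, 88886818 to 89239653, forward strand, 26 exons) was the deepest measured of the 2 ion transporters. In the day-0 mice 14026, 13814 and 12523 reads were counted, and in the day-21 mice 8694, 6915 and 7897, which is 1406, 1139 and 1291 CPM against 614.6, 412.5 and 483.7 CPM. All day-21 mice were under the lowest day-0 mouse by a wide margin. NBCe1 mRNA thus stood at 39.4% of its day-0 mean (log2 fold change -1.34, standard error 0.16, edgeR adjusted p = 8.6e-05). The count adds up transcripts from several starts, which differ in the amino end of NBCe1, and it does not tell the kidney form from the others.

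Car14 (ENSMUSG00000038526.14, chromosome 3, 95897768 to 95904691, reverse strand), a transmembrane enzyme with its active site outside the cell, fell by the largest factor among the 8 genes. It had 102.2, 126.5 and 76.47 CPM in the day-0 mice and 19.93, 28.1 and 19.11 CPM in the day-21 mice, so the highest day-21 mouse was far below the lowest day-0 mouse. The log2 fold change was -2.18 (standard error 0.21, edgeR adjusted p = 2.0e-05), a 4.54-fold fall. Reads may be shared with the neighbouring Aph1a, whose exons on the other strand hold 17.5% of the exon bases of Car14, and no strand setting of the counting is given. Aph1a itself had a log2 fold change of -0.39 and was not called.

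Car4 (ENSMUSG00000000805.18, chromosome 11, 84957786 to 84966044, forward strand), the GPI-anchored enzyme of the brush border, came next. Its day-0 values were spread, at 123.3, 219.1 and 176.8 CPM, while the day-21 values of 49.62, 43.61 and 40.67 CPM were close together. The day-21 mean was 25.8% of the day-0 mean (log2 fold change -1.96, standard error 0.19, edgeR adjusted p = 2.6e-05). Its coefficient of variation was 27.7% on day 0 and 10.2% on day 21.

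Car12 (ENSMUSG00000032373.15, chromosome 9, 66713686 to 66766845, forward strand) is a transmembrane enzyme too, made in the collecting duct as well. It fell by less, from 341.6, 347.3 and 281.4 CPM to 180, 175.1 and 161.8 CPM. Its log2 fold change was -0.91 (standard error 0.12, edgeR adjusted p = 1.6e-04). With libraries scaled by size alone, the change was -0.52 and Car12 was not called.

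Car2 (ENSMUSG00000027562.12, chromosome 3, 14886273 to 14900770, forward strand), the cytosolic enzyme, was present at 516.8, 586 and 457.6 CPM on day 0 and at 428.9, 420.7 and 414.4 CPM on day 21. The groups were parted, but the lowest day-0 mouse was near the day-21 mice. The log2 fold change was -0.30 with a 95% interval from -0.57 to -0.04 and an edgeR adjusted p of 0.0584, so Car2 was not called. DESeq2 gave an adjusted p of 0.0238 with a fold still under 1.5. Its sign depends on the scaling, since with library size alone it was 0.09. That scaling raises the median of all genes by 0.39, and relative to that median Car2 stood at -0.33, against -0.34 with TMM. Red cell genes, which can come with Car2 mRNA, were lower on day 21 (all 5 tested of 6 listed were called lower, summed level 226.9 to 524.9 CPM on day 0 and 33.82 to 77.9 CPM on day 21), and their part in the Car2 level was not tested.

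Car15 (ENSMUSG00000090236.3, chromosome 16, 17835276 to 17838364, reverse strand), a GPI-anchored enzyme like Car4, was close to the floor of 3 counts. The day-0 mice gave 2, 6 and 2 reads and the day-21 mice 6, 4 and 1, with overlap. Without a filter on low counts its log2 fold change was -0.36 (standard error 1.10, edgeR adjusted p = 0.837), too few reads to detect a difference. Another annotated gene on the same strand, Gm20518, holds 65.7% of its exon bases, so part of its reads may not have been assigned to it. Gm20518 had at most 3 counts in any mouse.

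The Na,K-ATPase subunit Atp1b1 (ENSMUSG00000026576.12, chromosome 1, 164437109 to 164458355, reverse strand) carried the most counts of the 9 genes. Its level was 2800, 2989 and 2434 CPM in the day-0 mice and 1821, 2009 and 1848 CPM in the day-21 mice, without overlap. The log2 fold change of -0.53 (standard error 0.13, 95% interval -0.81 to -0.25, edgeR adjusted p = 0.00605) was past the p threshold and below the fold of 1.5 in size, so it was not called. Leaving out the third day-0 mouse gave -0.63 and a call, which raised the number of the 9 genes called lower to 7. With library size alone the log2 fold change was -0.14. Exons of Nme7 on the other strand hold 18.7% of the exon bases of Atp1b1, and Nme7 had a log2 fold change of -0.14 and was not called.

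Fxyd2 (ENSMUSG00000059412.7, chromosome 9, 45399669 to 45410278, forward strand) encodes the gamma subunit, which adjusts the affinity of the pump for its ions. It fell from 1664, 2019 and 1459 CPM to 820.1, 874.4 and 887.3 CPM. The day-21 mice were close to each other, with an SD of 35.68 CPM (n = 3), and all lay under the day-0 mice. The log2 fold change was -0.99 (standard error 0.14, edgeR adjusted p = 2.5e-04), so that the day-21 mean was 50.2% of the day-0 mean.

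Per kilobase of exon, a scale on which levels of different genes can be set side by side, the order on day 0 was Atp1b1 (890 CPM per kilobase), Fxyd2 (428), Car2 (215), Slc4a4 (118), Car4 (88), Car12 (42.6), Car14 (40), Slc9a3 (28.2) and Car15 (0.158). The mice overlapped between Slc4a4 and Car4, between Car12 and Car14, and between Car14 and Slc9a3, so these neighbours were not apart beyond their spread. On day 21 the first 4 places were held by the same genes in the same order, at 614, 215, 174 and 46.6 CPM per kilobase. Car4 and Car12 were then level at 22.7 CPM per kilobase and overlapped, and Car14 had passed under Slc9a3 (8.8 against 13.5 CPM per kilobase, without overlap between mice). Exon length here is that of all annotated transcripts together, which understates genes with long unused exons.

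Ratios of counts within a library do not depend on its scaling. Of 5 ratios computed, 3 are given here. Car4 was lower relative to Car2 in every day-21 mouse, with 0.239, 0.374 and 0.387 counts per count of Car2 on day 0 and 0.116, 0.104 and 0.0982 on day 21. That is a difference of -1.62 on the log2 scale, with no overlap. The two-sided exact permutation test gave p = 0.1, the smallest that 3 mice against 3 allow, and 0.25 after Benjamini-Hochberg adjustment over the 5 ratios. Slc4a4 to Slc9a3 overlapped between the groups (exact permutation p = 0.4). The first day-0 mouse stood apart there, at 12.1 against 6.51 and 7.39 in the other day-0 mice and 6.7 to 6.9 on day 21. Car14 to Car4 overlapped as well (0.433 to 0.829 on day 0 and 0.402 to 0.645 on day 21, exact permutation p = 0.6), which does not show that both genes moved alike.

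**Figure D2:**
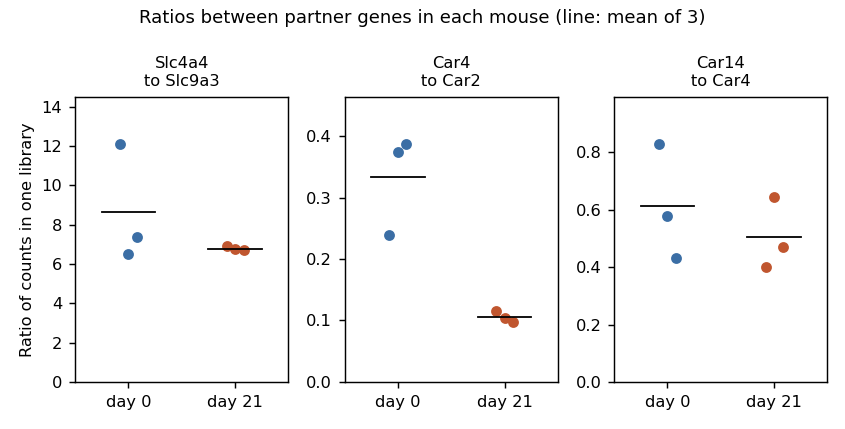
Ratio of the counts of 2 genes within each library (linear axis from 0) for 3 pairs, with 3 mice per day as points and their mean as a line. Car4 to Car2 lies between 0.0982 and 0.116 in the day-21 mice, under the 0.239 to 0.387 of the day-0 mice, while the groups overlap in the other pairs.

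Set against the summed counts of the 12 proximal markers, the 8 tested genes differed from one another. Car14 counts were 0.471% to 0.694% of that sum on day 0 and 0.521% to 0.892% on day 21, and Car4 counts 0.778% to 1.2% and 1.13% to 1.38%, with overlap between the groups in both. The other 6 tested genes were higher relative to that sum in every day-21 mouse. Slc9a3 went from 0.734% to 1.08% on day 0 to 1.94% to 2.33% on day 21, Slc4a4 from 6.25% to 8.87% to 13.1% to 16.1%, and Atp1b1 from 15% to 17.7% to 47.6% to 63.8%. No test was made on these shares, because the markers and the genes were picked with the counts known. The proximal markers had a median log2 fold change of -2.21, from -3.79 for Slc7a13 to -1.42 for Slc5a12, which is beyond the median of -1.03 for the 8 genes.

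Markers of other cells were called as well, beside shares of 15.5% called lower and 19.6% called higher over all genes tested. Of 6 thick ascending limb markers 3 were called lower and 1 higher, of 5 principal cell markers 2 lower, of 6 intercalated cell markers 4 lower, of 4 distal convoluted tubule markers 3 lower, of 4 podocyte markers 3 lower and of 4 endothelial markers 1 lower. Their summed levels on day 0 and day 21 were 5829 to 7211 and 3884 to 4310 CPM for the thick ascending limb, which is rich in Na,K-ATPase, and 273.6 to 495.1 and 153 to 193 CPM for intercalated cells, which make Car2. For principal cells they were 572.1 to 705.1 and 392.5 to 486 CPM, for the distal convoluted tubule 817.1 to 1398 and 488.9 to 654.5 CPM, for podocytes 390.3 to 619.9 and 297.4 to 344.7 CPM, and for endothelium, which can make Car4, 298.8 to 343.6 and 159.6 to 261.7 CPM. In the other direction, all 6 tested leukocyte markers and all 4 fibroblast markers were called higher, with sums of 124.6 to 150.6 and 572.2 to 679.9 CPM for leukocytes and of 113.8 to 185.4 and 771.3 to 1476 CPM for fibroblasts. The part of any of these cells in the level of any of the transport genes was not tested.

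**Figure D3:**
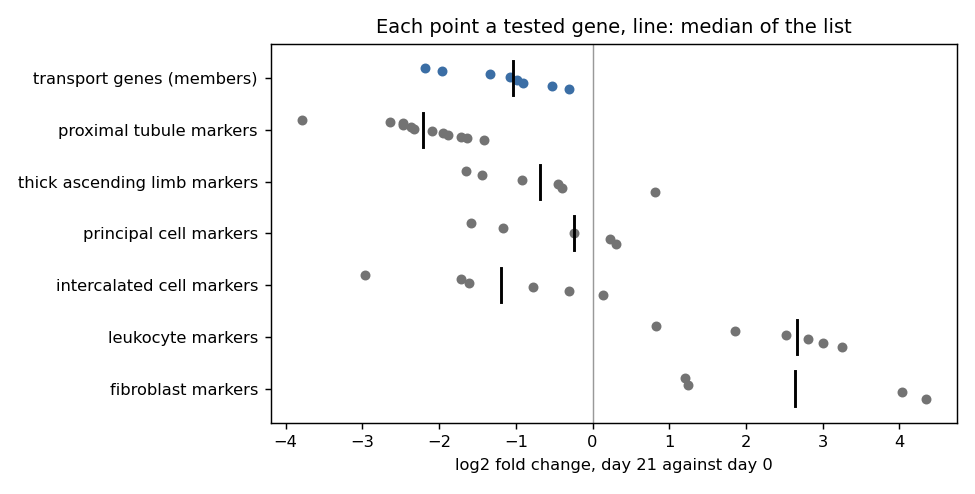
Log2 fold change, day 21 against day 0, of the 8 tested transport genes (blue) and of tested marker genes of 6 cell types (grey), with the median of each list as a black line. The transport genes lie between -2.18 and -0.30. Of these only Car14 (-2.18) and Car4 (-1.96) fall in the range of the proximal markers (-3.79 to -1.42). The transport genes also overlap the markers of thick ascending limb (-1.65 to 0.82), principal cells (-1.59 to 0.31) and intercalated cells (-2.97 to 0.14). All 8 stay to the left of the leukocyte and fibroblast markers.

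Beyond the 9 genes, 5 lists of relatives and partners held 55 genes, of which 48 were tested, 17 called lower and 9 called higher. The counts of each list stand beside shares of 15.5% called lower and 19.6% called higher over all genes tested. Whether any list differs from those shares was not tested. Of the other Slc9 sodium-proton exchangers, 2 of 8 tested were lower and 1 higher, with a median log2 fold change of -0.01. The largest fall was that of Slc9a8, which encodes NHE8, a further exchanger of the proximal brush border. It went from 211.1, 333.7 and 420.7 CPM to 43.4, 33.82 and 34.36 CPM (log2 fold change -3.11, standard error 0.24, edgeR adjusted p = 5.8e-06), an 8.66-fold fall beside the 2.1-fold fall of Slc9a3, and the difference between both falls was not tested. Slc9a9, an exchanger of endosomes, had 1.003, 0.9891 and 3.092 CPM on day 0 and 5.372, 6.204 and 5.329 CPM on day 21. It was called higher with a log2 fold change of 1.75, which was 2.47 without the third day-0 mouse.

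Of the other carbonic anhydrases, 4 of 8 tested were lower and 2 higher, with a median of -0.64. Car13, a cytosolic enzyme like Car2, rose from 4.412, 3.379 and 3.195 CPM to 19.09, 16.29 and 15.93 CPM (log2 fold change 2.22, standard error 0.20, edgeR adjusted p = 1.4e-05), and per kilobase of exon its day-21 level was 7.44 CPM against 174 CPM for Car2. Car9, a membrane enzyme induced by low oxygen in many cells, fell (-1.83). Car3, an enzyme abundant in muscle and fat, was called lower (-3.72), but its groups overlapped, with 1.304, 19.45 and 33.8 CPM on day 0 and 0.98 to 1.979 CPM on day 21, and limma-voom gave no call (adjusted p = 0.104). Without the third day-0 mouse the Car3 change was -2.97. Car1 and Car10 had 0 counts in all 6 mice.

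Among the other Na,K-ATPase subunits and FXYD proteins, 4 of 10 tested were called higher and none lower, with a median of 0.62. The summed level of this list was nonetheless lower, at 4937 to 6348 CPM on day 0 and 3881 to 4348 CPM on day 21. The 4 genes called higher held only a small part of that sum. At an unadjusted p under 0.05 edgeR found 1 lower, while DESeq2 and limma-voom called 0 lower. Among those that rose were Fxyd5 (2.14, from 9.492 to 41.81 CPM on average), Fxyd6 (1.25) and Atp1b2 (0.74, from 17.53 to 29.27 CPM). Fxyd5 encodes dysadherin, a FXYD protein that also affects cell adhesion.

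Of the other bicarbonate and anion transporters, 3 of 10 tested were lower and 2 higher, with a median of -0.05. Slc4a1, the chloride-bicarbonate exchanger of red cells and of acid-secreting intercalated cells, fell from 103.5, 65.03 and 51.22 CPM to 10.04, 10.02 and 7.901 CPM (log2 fold change -2.97, edgeR adjusted p = 1.0e-05), along with the red cell genes given above. Slc26a1, a basolateral sulfate and anion exchanger of the proximal tubule, fell (-1.34), and Slc4a3, another anion exchanger, rose (1.17) at a low level of 14.61 CPM on day 21. Slc4a2 stood at 0.02 and was not called.

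Of the regulators and partner channels, 8 of 12 tested were called lower and none higher, with a median of -0.64, and with library size alone 3 were called. None was higher at an unadjusted p under 0.05 by edgeR, or called higher by DESeq2 or limma-voom. The scaffold Pdzk1, which binds brush border transporters, had 1329, 1607 and 1403 CPM on day 0 and 615.6, 463.7 and 591.4 CPM on day 21 (log2 fold change -1.38, standard error 0.14, edgeR adjusted p = 3.5e-05). Slc9a3r1, which encodes the NHE3 scaffold NHERF1, had a log2 fold change of -0.72 and was called, but not with library size alone (-0.33). Ahcyl1 (IRBIT), an activator of some forms of NBCe1, which the Slc4a4 count does not tell apart, had -0.66 and was called. Ahcyl1 was not called with upper-quartile scaling (-0.57) or with library size alone (-0.27). The potassium channel Kcnj15 (-1.53) and the kinase Sgk1 (-1.35), which raises NHE3 activity, fell as well.

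**Figure D4:**
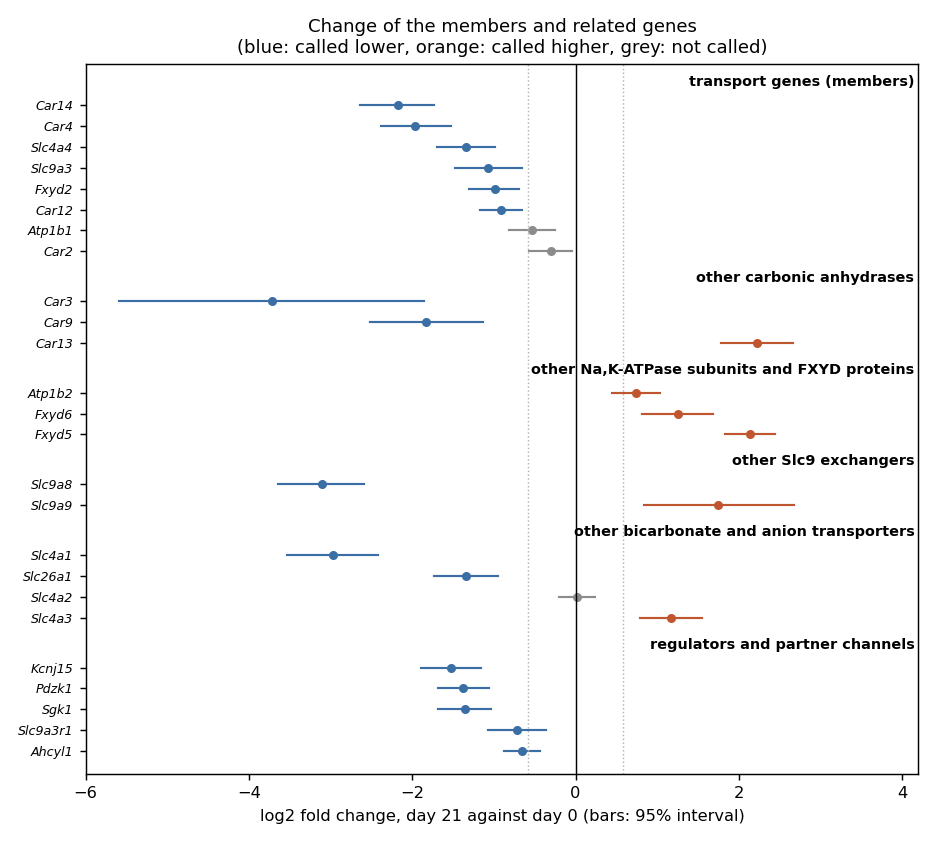
Log2 fold change with its 95% interval from edgeR for the 8 tested members and for 17 genes of the 5 related lists that are described in the text, blue if called lower, orange if called higher and grey if not called. Dotted lines mark a 1.5-fold change. With TMM scaling all 8 members and the 5 regulators shown have negative estimates, whereas Atp1b2, Fxyd5 and Fxyd6 are above 0, and with library size alone the estimate of Car2 is 0.09.

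Genes of a similar course were sought among 13142 genes with a mean of at least 50 counts, by the root mean square difference of centred log2 CPM over the 6 mice. The nearest gene was Dnajc22 for Slc9a3 (difference 0.0542), B4galnt3 for Slc4a4 (0.0521), Srp68 for Car2 (0.0251), Aqp11 for Car4 (0.0815), Rbm47 for Car12 (0.0364), Kl for Car14 (0.165), Slc44a4 for Atp1b1 (0.0397) and Ndufb10 for Fxyd2 (0.0305). Car14 had the least close neighbour of the 8. With 6 mice in 2 groups, a like difference between the days is enough to give such likeness.

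The sequences before the starts of these genes are shown because 6 of the 9 genes were called lower. Atp1b1 was lower too (log2 fold change -0.53, edgeR adjusted p = 0.00605) but short of the fold limit. Its difference from the called genes was not tested. RefSeq promoters on GRCm38 were at hand for 7 of the 9 genes, with 2 starts for Slc4a4 (Car2 and Fxyd2 had no entry). The bases after the RefSeq start were not found in a GENCODE M21 transcript for Slc9a3 and Car4. Their windows end some bases short of the GENCODE gene start (74121412 against 74121457 for Slc9a3). Both Slc4a4 windows lie inside the GENCODE gene. Part of the Car15 window lies inside its gene too (window from 17838187, gene end 17838364, reverse strand). The Car14 window enters its gene by a few bases (window from 95904686, gene end 95904691). The 250 bases before the start were searched on both strands for GTTAAT (from the site of HNF1, a factor of proximal tubule genes), CAAAGTCCA (a site of HNF4A, another such factor), TATAAA (the TATA box), CCAAT (bound by NF-Y), GGGCGG (the GC box, bound by Sp1) and ACGTG (the core of sites bound under low oxygen), and matches are in capitals, where adjacent matches can overlap. The windows are Slc9a3, chr13:74121163-74121412, forward strand, the second start of Slc4a4, chr5:89027716-89027965, forward strand, inside the gene, Car14, chr3:95904686-95904935, reverse strand, and Atp1b1, chr1:164458356-164458605, reverse strand.
Slc9a3: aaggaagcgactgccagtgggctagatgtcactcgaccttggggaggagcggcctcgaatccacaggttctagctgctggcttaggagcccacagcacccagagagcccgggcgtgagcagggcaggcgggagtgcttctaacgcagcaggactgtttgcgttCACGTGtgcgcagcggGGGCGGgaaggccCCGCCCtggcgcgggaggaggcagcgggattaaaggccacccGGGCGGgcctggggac
Slc4a4: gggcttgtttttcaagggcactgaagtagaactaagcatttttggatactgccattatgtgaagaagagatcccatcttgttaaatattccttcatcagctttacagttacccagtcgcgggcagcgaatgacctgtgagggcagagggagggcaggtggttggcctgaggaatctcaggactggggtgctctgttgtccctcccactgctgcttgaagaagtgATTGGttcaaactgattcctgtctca
Car14: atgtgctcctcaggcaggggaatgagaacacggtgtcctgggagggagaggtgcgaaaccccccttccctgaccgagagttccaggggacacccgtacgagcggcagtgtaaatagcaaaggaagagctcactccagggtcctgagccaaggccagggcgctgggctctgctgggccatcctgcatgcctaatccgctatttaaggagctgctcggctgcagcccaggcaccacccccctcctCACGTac
Atp1b1: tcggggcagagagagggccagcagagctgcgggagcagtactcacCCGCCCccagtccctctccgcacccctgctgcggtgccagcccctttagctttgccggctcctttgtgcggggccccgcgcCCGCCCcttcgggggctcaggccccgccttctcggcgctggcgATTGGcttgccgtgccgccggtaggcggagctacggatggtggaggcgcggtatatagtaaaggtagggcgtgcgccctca

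None of the 8 windows held the HNF1, HNF4A or TATA letters, which occur in 6.43%, 0.384% and 12.4% of 32851 promoters. GGGCGG, found in 32.7% of promoters, was in the windows of Slc9a3, Car12, Atp1b1 and the first start of Slc4a4. CCAAT, found in 33.8%, was in those of Atp1b1, Car15 and the second start of Slc4a4. ACGTG, found in 16.6%, was in those of Slc9a3 and Car14, and the Car4 window held none of these. The windows differed in base composition, from 82% G and C at the first start of Slc4a4 and 70.4% in Atp1b1 to 62% in Car14, 56.4% in Car4 and 48.8% at the second start of Slc4a4, beside a median of 52.4% for all promoters. A match of letters is a description and not a binding site.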

How the data were processed

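Kidney mRNA of 6 mice (3 per group) was sequenced by the authors as paired-end reads on libraries made with an Illumina TruSeq kit. The deposited values are raw counts per gene, made by the authors for each mouse without normalization. Their processing notes name TopHat and mm10, with no version, and the counting program and strand setting are not given in the sources used here. All 55450 gene identifiers and versions are those of GENCODE M21 (GRCm38).

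The counts were fitted with edgeR 4.0.16 (R 4.3.3): filterByExpr (minimum count 10, minimum total 15), TMM scaling, and the quasi-likelihood test of day 21 against day 0, with Benjamini-Hochberg adjustment over 16592 genes. Calls needed a fold over 1.5 and adjusted p below 0.05, the limits in the study's methods. Standard errors were derived from the log2 fold change and the F statistic. CPM are counts over TMM-scaled library sizes. At these depths 3 counts, the floor used, equal 0.179 to 0.309 CPM, a limit for counting error only. DESeq2 1.42.0, limma 3.58.1 (voom), other scalings and filters, a replicate block and leaving out each mouse were alternatives. So were fits without the mitochondrially encoded genes and without the 20 highest genes. The steps were tested on simulated data. Ratios were compared by exact permutation in Python 3.11.15, with 0.5 counts added. No pair of mice was a duplicate (chi-square per gene 7.19 to 24).

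The genes and lists were chosen with earlier results of these data known. Named genes are the 9 members, Slc9a3r1, Pdzk1, Ahcyl1, the 3 largest called changes of each list with a mean of at least 50 counts, the nearest gene in pattern, and listed markers. Slc4a2, Car1, Car10, Aph1a, Nme7 and Gm20518 were named after their values were seen. Some listed genes that the rule or a count would name are not reported here.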

Additional observations from a re-analysis of the deposited data

How the results depend on the processing

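The 8 tested members gave 128 values of log2 fold change under 16 alternatives each, and 127 of these were negative. The exception was Car2 with library size alone (0.09). Besides it, Car12 was not called with that scaling (-0.52) and Atp1b1 was called without the third day-0 mouse (-0.63). The number of members called lower ran from 4 to 7 over 18 alternatives and none was called higher in any. Calls over all genes went from 5821 to 3172 when a fold over 2 and adjusted p below 0.01 were required, where 3 bicarbonate and anion transporters and 3 regulators were called. The regulators called were 5 with upper-quartile scaling and 3 with library size alone, instead of 8. With library size alone, 81.7% of all calls were higher on day 21, against 55.8% with TMM.

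The replicate numbers in the labels do not link mice of the 2 days. Correlations of same-numbered mice's deviations from their group means were -0.019, 0.165 and 0.0896, and only the second day-0 mouse correlated best with its own number. With the replicate block, 5758 genes and 6 members were called, and the calls in the 5 lists numbered 6, 4, 3, 5 and 8, as without it. With each mouse left out, Slc9a3 ran from -1.26 to -0.94, Slc4a4 from -1.51 to -1.22, Car4 from -2.17 to -1.75, Car14 from -2.38 to -1.99 and Fxyd2 from -1.12 to -0.86. The difference in log2 ratio ran from -1.85 to -1.5 for Car4 to Car2. Having 3 mice a group limits every value, and low counts limit Car15.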
